A study of Caenorhabditis elegans with 14 samples.

Results

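Young adults of 2 Caenorhabditis elegans strains in which anatomical sex and X chromosome number are uncoupled were compared by RNA sequencing of whole worms. The strain TY2205 gives hermaphrodites with a single X chromosome (XO hermaphrodites), and the strain CB5362 gives males with a pair of X chromosomes (XX males). All 3 XO hermaphrodite and 4 XX male young adult libraries were used, 7 of the 14 libraries of the series. L3 larvae and a further TY2205 adult library that its submitters marked as reverted stayed outside the comparison. The worms were grown for 44 h at 25 °C after hatching, and expression was deposited as FPKM, reads scaled to transcript length and to the reads of the library. As background on the strains, TY2205 carries mutations in her-1, sdc-3 and xol-1, while CB5362 carries a temperature-sensitive tra-2 mutation and a xol-1 mutation, so both groups lack the xol-1 switch. The labels name the strains without their alleles. Strain, sex and X number differ together between the groups and cannot be told apart, and in whole worms a smaller tissue and less RNA per cell cannot be told apart either. Since no label says that replicates came from separate cultures, p-values cover only how far these libraries spread, and that spread may be technical.

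In the worm, the ratio of X chromosomes to autosomes sets xol-1, which in turn sets both sexual fate and dosage compensation, the process that lowers X expression in animals with a pair of X chromosomes. HER-1, a secreted protein made in males, blocks the receptor TRA-2; without it TRA-2 holds the FEM proteins in check and the transcription factor TRA-1 keeps cells female. Hermaphrodites are somatic females whose germline makes a batch of sperm in late larval life and then only oocytes, whereas males go on making sperm as adults. Adult hermaphrodites also make yolk in the intestine and have a uterus and vulva, and males have a copulatory tail with its own neurons and muscles and a gonad that secretes seminal fluid.

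Most of the expressed genome differed between the groups. limma on log2(FPKM + 1) was run on the 14141 of 20376 genes whose mean over the 7 libraries reached 1 FPKM, and the fold changes below are on this scale, XO hermaphrodite minus XX male. At an adjusted p under 0.05, 5567 genes (39.4%) were higher and 5593 (39.6%) lower in XO hermaphrodites, together 78.9% of those tested, so each count of a gene group below is read against these shares. The groups of libraries did not overlap for 78.0% of genes, 39.0% in each direction. The middle of the distribution lay near 0, with a median log2 fold change of -0.10 and quartiles of -1.15 and 1.13, but the extremes were not symmetric. At a log2 fold change of at least 3 there were 339 called genes higher and 1363 lower in XO hermaphrodites, and at least 5 there were 81 and 320. The split of calls into higher and lower depends on the scaling of the libraries, because the FPKM of all genes summed to between 916127 and 940071 in XO hermaphrodite libraries and between 1159056 and 1298816 in XX male ones. Of the calls 49.9% were higher as deposited, 59.4% after scaling to a common sum, 58.2% after quantile normalization, 50.9% after median ratio scaling and 40.1% after upper quartile scaling. These scalings moved the median of all genes by 0.34, 0.32, 0.04 and -0.35.

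Genes found on one side alone were more numerous on the male side. A mean of at least 10 FPKM in XX males with every XO hermaphrodite library under 0.1 FPKM was seen for 132 genes, and the reverse for 31. Of the 132, 33 lay on chromosome II, 32 on V and 7 on the X, and of the 31, 14 lay on V. These chromosomes held 2463 (II), 2719 (V) and 1850 (X) of the 14141 tested genes.

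A library in each group stood apart from the others. XO hermaphrodite replicate 3 held more sperm RNA: the FPKM of the 30 major sperm protein genes summed to 572, 429 and 2558 in XO hermaphrodite replicates 1 to 3, against 31199, 31267, 31155 and 45852 in the XX males. Of the 84 sperm genes lower in XO hermaphrodites, 80 had their highest XO hermaphrodite value in that library. It was also higher in cuticle collagens, by a median of 1.41 on the log2 scale over its companions, and its Spearman correlations with the XX males, 0.608 to 0.624, exceeded those of replicates 1 and 2, 0.495 to 0.539. XX male replicate 4 was higher in neuropeptide-like genes (median 0.52), in lysozymes and saposin-like genes (0.61) and in genes strongly enriched in XO hermaphrodites. Of the 81 genes with a log2 fold change of at least 5, 27 were over 2-fold higher in this library than in the other XX males, against 436 of all 14141 tested. Its oocyte regulators were higher by 0.19 and its eggshell genes by 0.30, beside 0.21 for all genes. The part of these libraries in the results was not tested, and values without them stand beside named genes and lists whose value or count they move by over 1.5 times.

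**Figure D1:**
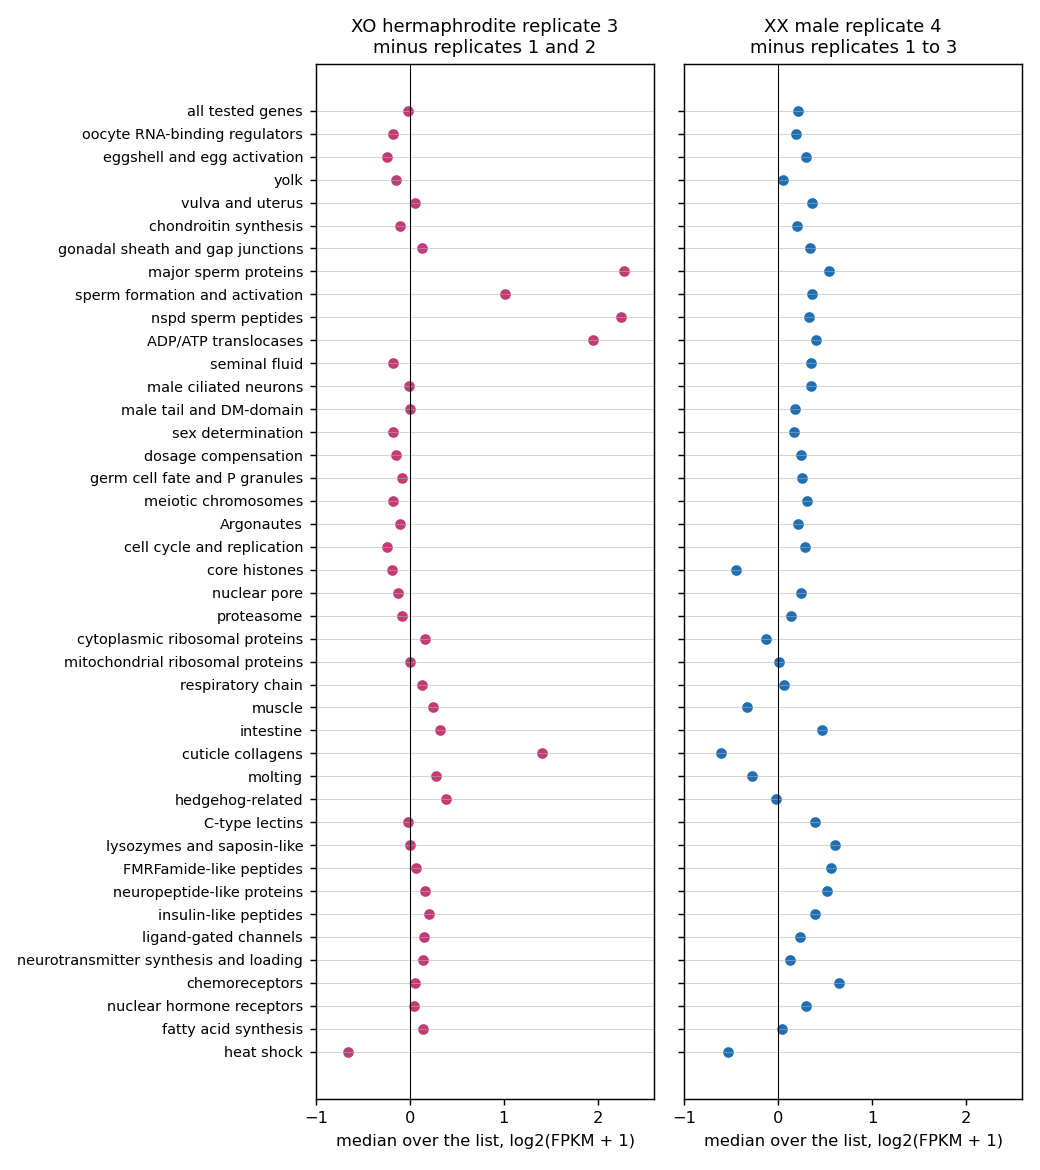
Points give, for all tested genes and for each gene list, the median difference on the log2(FPKM + 1) scale between XO hermaphrodite replicate 3 and the mean of its companions (left) and between XX male replicate 4 and the mean of its companions (right). On the left the sperm lists and cuticle collagens lie far from 0, with the major sperm proteins at 2.28, and on the right lysozymes are at 0.61 and cuticle collagens at -0.61.

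The genes altered in the strains were read first. The xol-1 gene, on the X, read 0 FPKM in each of the 7 libraries. By contrast her-1, mutated in TY2205, stood at 26.1, 42.7 and 14.7 FPKM in the XO hermaphrodites and at 0.698, 0.68, 0.401 and 0.788 in the XX males (log2 fold change 4.02, SE 0.31, adjusted p by limma 9.8e-06). All XO hermaphrodite libraries lay above all XX male libraries. The sdc-3 gene, a dosage compensation gene mutated in TY2205, stood at 0.24, 0.267 and 0.246 FPKM against 1.39, 1.32, 1.58 and 1.79. That is below the filter, and limma without the filter gave -1.01 (SE 0.09, adjusted p = 3.5e-05). The tra-2 gene, mutated in CB5362, stood at 37.7, 38.5 and 33.6 FPKM in XO hermaphrodites and between 16.8 and 19.5 in XX males (log2 fold change 0.98, SE 0.11, limma adjusted p = 5.1e-05).

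Among the 8 genes with the largest log2 fold change, 4 now carry the name ule, given to genes expressed in the uterine lumen, and the family was picked out after these values were seen. C08F11.11, now ule-4, stood at 1241, 1100 and 1117 FPKM in XO hermaphrodites and at 1.78, 0.996, 1.04 and 27.7 in XX males (log2 fold change 8.08, SE 0.88, limma adjusted p = 5.7e-05). The XX male libraries differed among themselves, with replicate 4 far above the others, and without it the value was 9.0. D1054.11 (ule-3) stood at 1452, 1208 and 954 FPKM against 1.58, 2.17, 2.55 and 15.9, with 7.98, and 8.59 without XX male replicate 4. W03F11.1 (ule-1) had 7.66 and Y62H9A.6 (ule-5), on the X, 7.15, and these became 8.51 and 7.82 without that library. All 5 ule genes of the table were higher in XO hermaphrodites, with F13G11.3 (ule-2) at 6.55. D1054.10, next to ule-3 in name, rose by 7.61 (8.20 without that library), F14H3.6 by 7.28, Y37D8A.19 by 7.19 and the C-type lectin gene clec-87 by 7.04. The clec-87 libraries were tight, at 844, 962 and 715 FPKM against 5.41, 5.77, 4.58 and 5.68.

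The lists of genes used below were drawn up with earlier results of these data known and got no test of their own; their counts and medians stand beside those of all tested genes. All 16 oocyte RNA-binding regulators, proteins that hold maternal messages silent until the egg needs them, rose in XO hermaphrodites, by a median of 4.35 on the log2 scale against -0.10 for all genes. The PUF protein gene puf-5 stood at 433, 485 and 413 FPKM against 3.83, 4.50, 3.46 and 4.20 (6.48, SE 0.12, limma adjusted p = 1.6e-08). The CCCH zinc finger gene pos-1, needed for cell fates in the embryo, stood at 790, 826 and 660 FPKM against 8.44, 8.60, 8.03 and 8.69 (6.32, SE 0.11). For both genes every XO hermaphrodite library lay far above every XX male library. The redundant oocyte maturation genes oma-1 and oma-2, read as oocyte markers, differed in their male level. The gene oma-2 had 4.04 ± 0.431 FPKM (SD, n = 4) in XX males and oma-1 had 30.7 ± 5.56, with log2 fold changes of 5.82 and 2.63.

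All 15 eggshell and egg activation genes were higher as well, with a median of 4.92. The chondroitin proteoglycan gene cpg-3 stood at 294, 315 and 282 FPKM against 2.13, 2.52, 2.07 and 3.85 (log2 fold change 6.38, SE 0.17). The gene egg-1, which encodes an oocyte surface protein needed for sperm entry, stood at 314, 329 and 284 against 4.78, 4.63, 4.91 and 3.73 (5.82, SE 0.12). The smallest rise of the list was that of the kinase gene mbk-2, at 1.42, named after its value was seen. Together these 15 genes made up 0.953% of the summed FPKM in XO hermaphrodites and 0.0243% in XX males.

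Yolk genes rose in 6 of 7 cases. The yolk receptor gene rme-2, which acts on the oocyte surface, stood at 285, 311 and 267 FPKM against 8.56, 8.81, 8.16 and 7.37 (log2 fold change 4.97, SE 0.11, limma adjusted p = 2.4e-08). Among the yolk proteins, vit-3 stood at 3308, 3172 and 2834 FPKM against 59.0, 83.5, 60.2 and 68.1, a log2 fold change of 5.51. The others had 5.38 for vit-4, 5.26 for vit-1, 5.04 for vit-5 and 4.16 for vit-2. vit-3, vit-4 and vit-5 are near-identical copies, so the split of reads among them is uncertain. The sixth, vit-6, was listed at 0 FPKM in XO hermaphrodite replicates 1 and 2 and at 10490 in replicate 3, against 259 to 409 in XX males. It was not called (-3.88, limma adjusted p = 0.262), and was called lower, at -8.33, without replicate 3. A listing at 0 beside such a value can be a failed estimate, so no direction is drawn for vit-6.

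Genes of the egg-laying tract moved in both directions. Of 14 vulva and uterus genes 11 were expressed enough to be tested, and 4 were higher and 7 lower, with a median of -0.66. After quantile normalization 4 were higher and 3 lower, and after upper quartile scaling 2 and 7. Without XO hermaphrodite replicate 1, XX male replicate 1 or XX male replicate 2, 2 were higher and 6 lower. The bHLH gene hlh-2, which acts with other bHLH factors in the anchor cell among other cells, stood at 17.96, 21.4 and 12.9 FPKM against 1.55, 1.404, 1.71 and 2.33 (log2 fold change 2.73, SE 0.20). The EGF gene lin-3, the anchor cell signal that induces the vulva, was also higher, by 2.51, and is named after its value was seen. On the other side, fos-1, a factor for anchor cell invasion, fell from 31.8 ± 1.97 FPKM (n = 4) to 19.7 ± 0.193 (n = 3), a log2 fold change of -0.66. Lower too, and named after their values were seen, were hlh-8, a Twist factor of the mesoblast and sex muscle lineage, at -2.0, and the FGF receptor gene egl-15 at -1.11. Genes of chondroitin synthesis, the sugar chain of the eggshell and the vulval lumen, were all higher, 9 of 9 with a median of 1.81. The chondroitin synthase gene sqv-5 stood at 79.4, 90.6 and 79.0 FPKM against 14.4, 13.1, 12.4 and 14.6 (2.52), and the xylosyltransferase gene sqv-6 at 31.7, 32.5 and 32.5 against 6.10, 5.67, 5.78 and 5.76 (2.28).

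In the list of gonadal sheath and gap junction genes, 7 of 13 were higher and 4 lower (5 and 6 after upper quartile scaling), with a median of 0.69. The innexin genes inx-22 and inx-14, whose proteins join oocytes to the sheath, were among those that rose. The level of inx-22 was 75.2, 91.8 and 70.4 FPKM against 8.68, 8.39, 7.88 and 10.1 (log2 fold change 3.03), and inx-14 had 2.37. The troponin T gene tnt-4 went the other way, at 24.2, 20.2 and 46.0 FPKM against 74.6, 82.7, 104 and 60.3 (-1.45, SE 0.29, limma adjusted p = 0.00205), with XO hermaphrodite replicate 3 nearest the males.

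All 30 major sperm protein genes, which encode the cytoskeletal protein that drives sperm crawling, were lower in XO hermaphrodites, with log2 fold changes from -5.96 to -3.67 and a median of -5.28. Without XO hermaphrodite replicate 3 the median was -6.05. The gene msp-63 stood at 1.103, 0.538 and 1.92 FPKM against 119, 156, 140 and 111 (-5.96, SE 0.23, limma adjusted p = 3.4e-07), and msp-64 at 16.96, 7.35 and 48.9 against 768, 1224, 852 and 1203 (-5.66, SE 0.53, with -6.34 without XO hermaphrodite replicate 3 and -5.05 without replicate 2). For both, replicate 3 was the highest XO hermaphrodite library and still far below the lowest XX male. Most msp genes are near-identical, so values of single members are uncertain while their sum is less so. The sum made up 0.0465% to 0.272% of all FPKM in XO hermaphrodite libraries and between 2.399% and 3.59% in XX male libraries.

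Of 51 genes of sperm formation and activation 50 were tested, and 45 were lower and 4 higher, with a median of -3.75 (-4.14 without XO hermaphrodite replicate 3). The gene ssp-10, of a family of small sperm proteins, stood at 29.9, 23.3 and 127 FPKM against 1932, 1981, 2295 and 2501 (log2 fold change -5.56, and -6.30 without replicate 3). Read as sperm markers, spe-9, a sperm surface protein needed for fertilization, had 0.515 ± 0.306 FPKM (n = 3) against 9.58 ± 1.84 (n = 4), and spe-11, which sperm bring into the egg, had 6.83 ± 6.91 against 95.5 ± 8.52. The 4 members that rose were W02D9.5 (ssp-37), the zinc transporter gene hke-4.1 (zipt-7.1), spe-39, which acts in vesicle traffic also outside sperm, and Y51F10.10 (spe-48). Of these W02D9.5 stood at 24.6, 18.4 and 18.6 FPKM against 0.48, 0.22, 0.129 and 0.288 (4.07, SE 0.16, limma adjusted p = 4.0e-07), opposite to the rest of its family. The others had log2 fold changes of 1.44, 1.03 and 0.72 and are named after their values were seen. The nspd genes, a nematode family of short peptides expressed in sperm-forming cells, were lower in 9 of 9 tested (of 10), with a median of -5.11 (-5.82 without XO hermaphrodite replicate 3) and nspd-1 at 70.8, 53.1 and 302 FPKM against 3368, 4300, 6028 and 8054 (-5.61, and -6.37 without replicate 3).

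Several genes with a widely used function had a copy that was far lower in XO hermaphrodites. Of the mitochondrial ADP/ATP translocases, ant-1.3 stood at 3.83, 2.29 and 14.4 FPKM against 219, 197, 221 and 297 (log2 fold change -5.21, and -5.86 without XO hermaphrodite replicate 3), and ant-1.4 at 2.68, 1.17 and 10.5 against 151, 145, 131 and 187 (-5.09, and -5.76 without it). Their paralog ant-1.1 stood at 3639, 3638 and 3847 FPKM against 5376, 5808, 4939 and 6418, a log2 fold change of -0.60 that was not called after scaling to a common sum (-0.19) or after quantile normalization. The fourth, ant-1.2, did not exceed 0.133 FPKM in any library. The cytochrome c genes cyc-2.2 and cyc-2.1 had -4.39 (-5.05 without XO hermaphrodite replicate 3) and -1.43. For the PP1 phosphatases, gsp-3 stood at 4.98, 2.98 and 17.98 FPKM against 385, 378, 325 and 494 (-5.68, and -6.33 without replicate 3) and gsp-4 had -5.15, while gsp-1 and gsp-2 were higher, by 0.35 and 0.92. The value of gsp-1 is of the size by which upper quartile scaling moved the median of all genes (-0.35), so its direction is uncertain. The proteasome lid genes rpn-6.1 and rpn-6.2 split likewise, with 124.5 ± 16.7 against 40.9 ± 4.61 FPKM for rpn-6.1 (1.58) and 12.3 ± 1.87 against 53.2 ± 4.50 for rpn-6.2 (-2.03). The phosphatase gene cdc-25.3 stood at 24.5, 28.7 and 26.3 FPKM against 0.091, 0, 0 and 0 (4.75), and its paralog cdc-25.4 at 0.418, 0.289 and 1.53 against 13.4, 12.7, 11.8 and 16.4 (-3.12). The histone H3 gene his-70 (-4.77), the ribosomal protein gene rpl-42 (-3.51), which had -5.39 and -4.19 without XO hermaphrodite replicate 3, and the fatty acid elongase genes elo-7 (-4.25) and elo-8 (-3.45) also fell, with that replicate highest of its group for all of them. The pairing of these paralogs was made after their values were seen, apart from the translocases.

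Seminal fluid genes were lower in 4 of 4 cases. The lectin gene clec-207 stood at 0.151, 0.149 and 0 FPKM against 244, 271, 262 and 343 (log2 fold change -7.99 with SE 0.14, limma adjusted p = 1.5e-08), and clec-208 at 0.0741, 0.0733 and 0.108 against 205, 203, 178 and 283 (-7.63). The protease gene try-5, whose product activates sperm, stood at 0.324, 0.503 and 0.271 against 17.4, 15.04, 17.9 and 20.6 (-3.77). Its inhibitor gene swm-1 was not male-limited, at 46.6, 41.9 and 26.04 FPKM against 68.8, 55.4, 64.6 and 74.4, a log2 fold change of -0.80 that was not called after scaling to a common sum (-0.40).

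The 8 largest falls were in fipr genes, a family named for fungus-induced peptides, and in genes known by a sequence name. Among them fipr-17 stood at 2.49, 0 and 1.82 FPKM against 2545, 4688, 4250 and 5426 (log2 fold change -10.89), and C48B4.12 at 0.0846, 0 and 0 against 1350, 1708, 1795 and 2748 (-10.80). F56C3.8, on the X, had -10.48 and Y47D7A.11 had -10.003. The genes fipr-18, fipr-20, F46B6.13 and K03D3.5 were listed at 0 in all XO hermaphrodite libraries, with means of 1188 ± 408, 1241 ± 475, 1101 ± 300 and 941 ± 190 FPKM in the XX males. The near-identical fipr-18 and fipr-20 may share reads. The fip and fipr family as a whole, picked out after these values were seen, was mixed, with 16 of 32 tested lower, 2 higher and a median of -0.85.

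Genes listed for male ciliated neurons were lower as well, as were most genes of the other nervous system lists given below. Of 11 genes of the ciliated sensory neurons that males use to find and mate with hermaphrodites, 9 passed the filter and all 9 were lower, with a median of -2.24. Sizes at such low levels depend on the pseudocount, and with 0.1 in place of 1 the median was -4.59. The polycystin genes lov-1 and pkd-2, the mechanosensory and mating receptors of these cells, stood at 0.0057 to 0.0154 FPKM against 2.28 to 2.91 and at 0.0262 to 0.0805 against 4.88 to 8.23 (log2 fold changes -1.81 and -2.80, or -4.59 and -5.48 with a pseudocount of 0.1). The gene cwp-1, named for expression with the polycystins, stood at 0.437, 0.648 and 0.958 FPKM against 86.2, 74.3, 75 and 99.8 (-5.66, SE 0.16, limma adjusted p = 7.4e-08), and cwp-2 at 1.19, 1.17 and 1.04 against 80.8, 76.2, 77.5 and 114 (-5.35). Smaller values belonged to cwp-5 on the X (-3.0), cwp-4 (-2.24), cwp-3 (-2.07), the tubulin gene tba-9 (-1.47) and W03G9.7 (cil-7, -1.38). The kinesin gene klp-6 and the tubulin gene tba-6 were below the filter, at 0.15 ± 0.0835 against 0.481 ± 0.0561 FPKM and 0.073 ± 0.0489 against 0.836 ± 0.105. In all 11 genes the groups of libraries did not overlap.

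Regulators of the male tail fell in 12 of 13 tested genes (18 in the table), with a median of -1.36. The DM-domain factors, relatives of Doublesex that act downstream of TRA-1, led. Here mab-3, which blocks yolk synthesis in males and shapes the tail, stood at 2.0, 1.18 and 0.799 FPKM against 104, 104, 99.9 and 100 (log2 fold change -5.50 with SE 0.17, limma adjusted p = 1.3e-07), and mab-23 was listed at 0 in all XO hermaphrodite libraries against 9.33, 9.65, 12.99 and 10.5. Tail tip factor dmd-3 had -3.25 and the Hox gene egl-5 had -2.71, both named after their values were seen. The exception was Y67D8A.3 (dmd-9), at 21.4, 21.5 and 18.5 FPKM against 7.14, 9.12, 8.34 and 9.49 (1.17, SE 0.13).

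**Figure D2:**
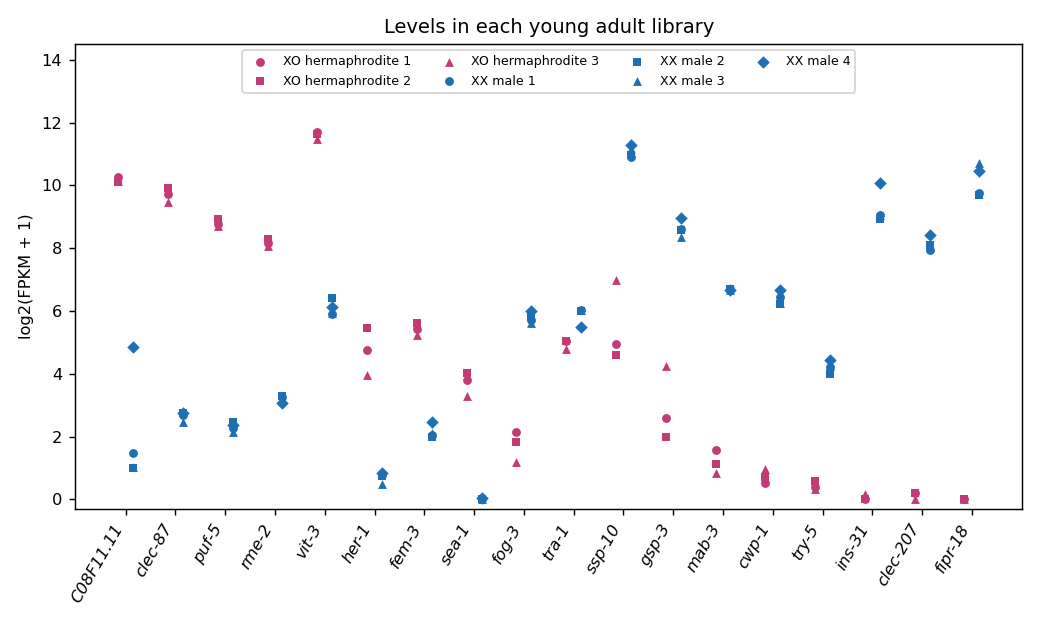
Points give log2(FPKM + 1) in each of the 3 XO hermaphrodite (pink) and 4 XX male (blue) libraries for 18 genes, with a symbol for each replicate. XX male replicate 4 lies apart for C08F11.11, tra-1 and ins-31, XO hermaphrodite replicate 3 lies nearest the males for ssp-10 and gsp-3, and the groups do not overlap for any gene shown.

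Genes of the sex determination pathway were mostly higher in XO hermaphrodites, 13 of 17 tested against 3 lower, with a median of 1.33. Signals that read the X chromosomes and autosomes came first. The autosomal T-box gene sea-1, which favours male fate, stood at 12.8, 15.3 and 8.87 FPKM against 0, 0, 0 and 0.0306 (log2 fold change 3.69, SE 0.18), and the X-linked nuclear receptor gene sex-1, which opposes it, rose by 1.78. The X-linked RNA-binding gene fox-1 was not called (-0.19, limma adjusted p = 0.325), though it was called lower after upper quartile scaling (-0.53). Its direction rests on the scaling, with 0.15 after scaling to a common sum and 0.40 after quantile normalization. Of the fem genes, whose products bring about male fate, fem-3 stood at 41.7, 48.2 and 36.4 FPKM against 3.14, 2.93, 3.32 and 4.53 (3.27, SE 0.16, limma adjusted p = 1.3e-06). fem-2 rose by 1.86 and fem-1 by 0.68, the latter not called after quantile normalization (0.38) or upper quartile scaling (0.27).

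Among the germline sex genes the direction split. The gene fog-2, an F-box gene that allows hermaphrodites to make sperm, stood at 33.8, 36.7 and 30.2 FPKM against 5.55, 5.01, 4.96 and 7.20 (log2 fold change 2.38). fog-3, which commits germ cells to sperm, stood at 3.40, 2.54 and 1.30 against 51.8, 55.6, 48.5 and 62.4 (-4.07, SE 0.22, limma adjusted p = 2.0e-06), and fog-1, its partner, had 23.3, 21.96 and 16.3 against 30.1, 31.5, 34.4 and 42.8 (-0.74, and -0.34, not called, after scaling to a common sum). Unlike the sperm structural genes, fog-3 was lowest, not highest, in XO hermaphrodite replicate 3. The mog genes, splicing-related helicases that end sperm production in hermaphrodites, rose by 1.33 (mog-1), 1.72 (mog-4) and 1.35 (mog-5). At the end of the pathway, tra-1 stood at 32.3, 31.8 and 26.9 FPKM against 64.9, 63.5, 63.9 and 43.9 (-0.93, SE 0.16), with XX male replicate 4 nearest the XO hermaphrodites. tra-3, a protease gene upstream, had 0.98, and laf-1, an RNA helicase gene that represses tra-2, had 0.56 (0.15, not called, after upper quartile scaling).

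Dosage compensation complex genes rose in 9 of 9 tested members, with log2 fold changes from 0.37 to 1.5 and a median of 1.11, while sdc-3, the tenth, was below the filter. The condensin subunit genes capg-1 and dpy-28 led. capg-1 stood at 45.4, 49.1 and 44.5 FPKM against 14.9, 15.2, 13.6 and 19.7 (1.5, SE 0.14), and dpy-28 at 34.0, 36.1 and 27.5 against 10.96, 10.7, 10.3 and 14.4 (1.41, SE 0.15). The gene sdc-2, which in XX animals brings the complex to the X, was low in both groups, at 1.78, 1.98 and 1.84 FPKM against 0.885, 0.688, 0.905 and 0.918 (0.63, limma adjusted p = 0.00133). Several condensin subunits here also serve mitosis and meiosis. The germ cell fate, meiotic and cell cycle lists described next were mostly higher too, and the part of the germline in the dosage compensation values was not tested.

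Germline genes that both sexes use were higher in XO hermaphrodites. All 21 genes of germ cell fate and P granules were higher, with a median of 1.79. The Notch receptor gene glp-1, which keeps germline stem cells dividing, stood at 76.5, 82.4 and 65.9 FPKM against 5.71, 5.70, 5.76 and 7.70 (log2 fold change 3.40), and T27F6.4 (sygl-1), its target, had 187, 167 and 142 against 12.2, 15.2, 13.4 and 16.2 (3.44, SE 0.14). Meiotic chromosome genes rose in 31 of 33 cases, with a median of 1.48. The pairing centre genes him-8, which pairs the X, and zim-2 had the largest values, him-8 at 22.5, 24.6 and 19.5 FPKM against 3.50, 2.61, 3.009 and 3.91 (2.45) and zim-2 at 2.39. Cell cycle and replication genes rose in 25 of 27 cases, with a median of 3.0. Among them the ribonucleotide reductase gene rnr-2, which makes DNA precursors, stood at 362, 371 and 294 FPKM against 12.2, 10.6, 11.5 and 12.4 (4.76, SE 0.12, limma adjusted p = 4.6e-08). The part of germline size in these differences was not tested.

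The Argonautes, proteins that load small RNAs, divided by gene: 14 of 21 were higher and 5 lower (16 and 3 after scaling to a common sum), with a median of 1.09. ergo-1, which works with small RNAs of oocytes and embryos, stood at 98.5, 104 and 87.8 FPKM against 9.08, 8.50, 8.02 and 8.43 (log2 fold change 3.36, SE 0.11), and T23D8.7 (alg-5) had 3.06. In contrast, tag-76 (alg-4), which with alg-3 acts in sperm formation, stood at 1.02, 0.59 and 5.83 against 71.9, 72.5, 61.6 and 82.8 (-4.70, and -5.34 without XO hermaphrodite replicate 3). T22B3.2 (alg-3) had -4.64 and T22H9.3 (wago-10) had -4.29, both named after their values were seen. csr-1, which acts in both germlines, had 0.46.

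Core histone genes were lower in 37 of 66 tested and higher in 7 (69 in the table), with a median of -0.53. Without XO hermaphrodite replicate 3, 11 were higher and 30 lower. After scaling to a common sum 11 were higher and 25 lower, after quantile normalization 9 and 22, and after upper quartile scaling 4 and 43. The libraries were made from poly(A) RNA, and most core histone messages have no poly(A) tail, so these are levels of the fraction that was captured. The H2A gene his-68 stood at 52.9, 57.5 and 35.3 FPKM against 17.3, 17.9, 20.0 and 20.7 (log2 fold change 1.29), and his-25, one of many near-identical H3 copies, fell by 2.09.

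Genes of basic cell machinery did not move together. All 26 tested nuclear pore genes (of 27) were higher, with a median of 1.70. npp-15 stood at 39.5, 47.02 and 37.5 FPKM against 6.06, 5.23, 4.86 and 5.87 (log2 fold change 2.70, SE 0.13), and npp-22 had 2.59. Proteasome subunits rose in 29 of 33 cases with a median of 0.67, led after rpn-6.1 by rpn-11 (1.27), and 13 were higher and 2 lower after upper quartile scaling. Mitochondrial ribosomal proteins rose in 59 of 65 cases with none lower and a median of 0.90, with F43C1.6 (mrpl-21) at 36.3, 39.1 and 40.5 FPKM against 13.98, 12.9, 9.93 and 17.2 (1.47). The respiratory chain went the other way, 27 of 42 lower and 8 higher with a median of -0.56, but 14 were higher and 9 lower after quantile normalization. Within it JC8.5 (cox-11), an assembly factor, rose by 1.41, while the X-linked ucr-2.1, a subunit of complex III, stood at 89.5, 80.3 and 103 FPKM against 288, 296, 271 and 275 (-1.63, SE 0.11).

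For the 78 cytoplasmic ribosomal protein genes the direction rests on the scaling: 7 were higher and 13 lower as deposited, with a median of -0.06, 45 and 4 after scaling to a common sum, 45 and 3 after quantile normalization, and 0 and 49 after upper quartile scaling. Without XX male replicate 3, 15 were higher and 13 lower, and without XO hermaphrodite replicate 3, 3 and 13. Their share of summed FPKM was 18.65% to 20.65% for the XO hermaphrodite libraries, and for the XX male libraries 14.36% to 18.5%. Single members stood out on each side. rpl-24.2 was at 92.3, 96.0 and 96.2 FPKM against 49.9, 52.0, 60.03 and 79.2 (0.67, and 0.25, not called, after upper quartile scaling), and the X-linked rpl-25.1 at 599, 475 and 640 against 1368, 1555, 2365 and 1218 (-1.47, SE 0.23).

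Muscle genes fell in 21 of 22 cases, with a median of -1.30. The troponin I gene tni-3 stood at 64.7, 68.6 and 70.8 FPKM against 511, 639, 664 and 493 (log2 fold change -3.05, SE 0.13, limma adjusted p = 7.4e-07). The X-linked actin gene act-4 stood at 1479, 1074 and 1226 against 4754, 5367, 4719 and 3806 (-1.89). The body wall myosin gene unc-54, read as a marker, had 714 ± 134 FPKM (n = 3) against 1851 ± 293 (n = 4), also lower (-1.38). Of 21 tested intestinal genes (22 in the table) 12 were lower and 1 higher, with a median of -0.83. The cathepsin gene cpr-4 stood at 467, 89.4 and 234 FPKM against 870, 1013, 844 and 2224 (-2.40, SE 0.56), with wide spread in both groups, and -1.78 without XO hermaphrodite replicate 2. cpr-3 fell by 2.02. The only member higher was asp-4, an X-linked aspartyl protease gene, by 0.30, which turned to -0.12 after upper quartile scaling and lost its call on leaving out any 1 library except XX male replicate 1. The gut GATA factor gene elt-2 had 6.57 ± 0.457 against 12.7 ± 0.515 FPKM (-0.85), while yolk, made by the same cells, rose.

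Cuticle collagens were lower in 63 of 147 tested (178 in the table) and higher in 8, with a median of -1.41, and 76 were not called. The share called lower, 63 of 147, is near that of all genes. It was larger with a replicate block by titles, which sets XX male replicate 4 aside, as given below under the dependence on processing. The count depends on single libraries: without XO hermaphrodite replicate 3, 114 were lower and 9 higher, with a median of -1.96, and without replicate 2, 42 were lower and 8 higher, with a median of -0.82. The most abundant adult collagens fell. col-124 stood at 5008, 3162 and 4845 FPKM against 13150, 15730, 14980 and 7784 (log2 fold change -1.55, SE 0.28), col-122 had -1.48 and col-119 had -0.75 (-0.34 after scaling to a common sum and -0.23 after quantile normalization, neither called). For col-124 XX male replicate 4 was the lowest of its group. col-149 and col-14 were called lower (-2.61 and -2.59) with overlapping libraries, col-149 at 11.96, 16.4 and 103 against 217, 236, 254 and 70.7; without XO hermaphrodite replicate 3 they had -3.54 and -3.67, and col-14 was not called without XO hermaphrodite replicate 1 or 2 or XX male replicate 1 or 3. In contrast, col-135 rose, at 58.5, 36.5 and 17.7 FPKM against 0.127, 0.231, 0.307 and 0.438 (4.77, SE 0.35). So did dpy-17 and dpy-14, body shape collagen genes named after their values were seen, by 2.72 and 2.69.

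Of 19 tested molting genes 2 were higher and 4 lower, with 3 and 1 after scaling to a common sum, 4 and 4 after quantile normalization and 2 and 11 after upper quartile scaling. Without XO hermaphrodite replicate 3, or without XX male replicate 2, 7 were lower. The astacin protease gene nas-37, used in shedding the cuticle, stood at 11.9, 8.26 and 12.8 FPKM against 2.50, 0.635, 3.36 and 1.43 (log2 fold change 2.08). Y39C12A.1 (mlt-3) fell by 0.71 and noah-2 by 0.64. The call of noah-2 was lost on leaving out any 1 library except XX male replicate 4, and Y39C12A.1 was not called after scaling to a common sum (-0.33). Of 51 tested hedgehog-related and patched-related genes (86 in the table) 26 were lower and 3 higher, with a median of -0.84 (15 and 6 after scaling to a common sum, and 17 and 10 after quantile normalization). The 3 that rose were all patched-like membrane protein genes: ptr-2, at 118, 135 and 112 FPKM against 7.49, 6.63, 6.63 and 7.55 (3.92, SE 0.11), ptc-2 (1.95) and ptc-1 (1.81), which acts in germline cytokinesis, the last pair named after their values were seen. Of the ligand-like genes grd-13 fell from 161 ± 50.8 to 31.7 ± 1.71 FPKM (-2.24).

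C-type lectin genes ranged from -8.99 to 7.04. Of 145 tested (256 in the table) 104 were lower and 12 higher, with a median of -1.96. The lectin gene clec-197 stood at 0, 0.0678 and 0 FPKM against 463, 467, 448 and 752 (log2 fold change -8.99, SE 0.19) and clec-99 at 0.225, 0.222 and 0.219 against 514, 522, 518 and 703 (-8.84). Both were highest in XX male replicate 4. After clec-87, the largest rise was in clec-91 (5.64), named after its value was seen. Lysozymes and saposin-like genes had 14 of 32 tested lower and 1 higher (43 in the table, with 16 and 4 without XX male replicate 4), with a median of -0.81. The share called lower, 14 of 32, is near the 39.6% of all tested genes. spp-4, on the X, fell by 2.25 and spp-23 by 2.11. The 1 that was higher, lys-10, had overlapping libraries, at 138, 25.5 and 1.69 FPKM against 0.224, 0.205, 0.241 and 4.94 (3.56, SE 1.24, limma adjusted p = 0.0282). Its call was lost without XO hermaphrodite replicate 1 (2.22) or 2, or XX male replicate 1, 2 or 3, and without XO hermaphrodite replicate 3 it had 5.06.

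**Figure D3:**
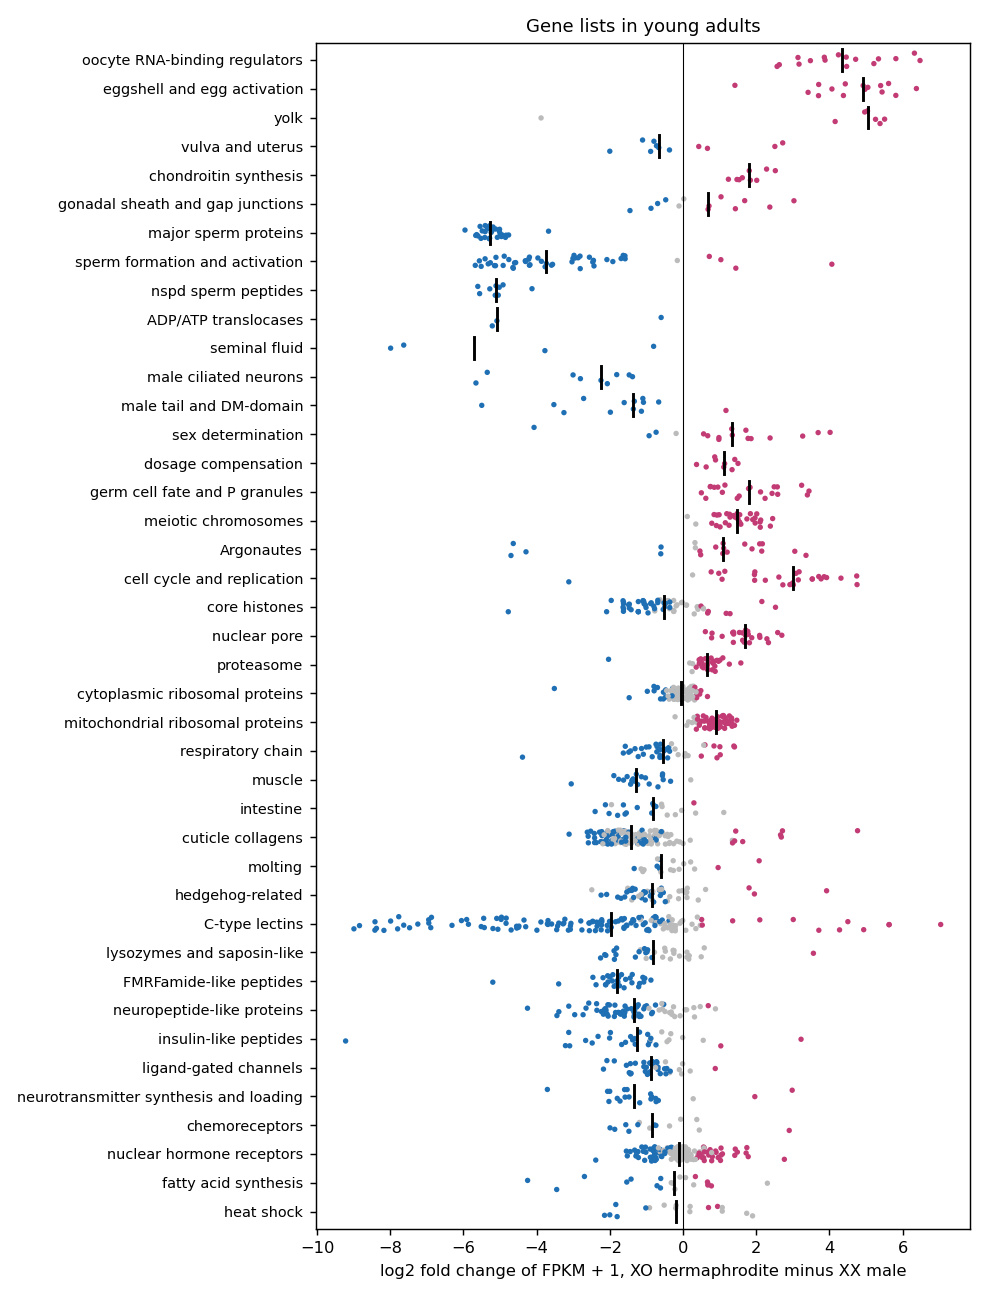
Each point is a tested gene of a list, placed by its log2 fold change of FPKM + 1, XO hermaphrodite minus XX male; pink points were called higher, blue lower and grey not called (limma adjusted p under 0.05), and black bars are list medians. Sperm, male and neuropeptide lists lie to the left and oocyte lists to the right, while the medians of the nuclear hormone receptor, fatty acid, ribosomal protein, respiratory chain and heat shock lists change sign with the scaling.

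In each of 6 lists of nervous system genes more members were lower than higher in XO hermaphrodites. All 31 FMRFamide-like peptide genes were lower, with a median of -1.79 and a range of -5.20 to -0.88. The gene flp-23 was listed at 0 in all XO hermaphrodite libraries against 33.5, 34.6, 31 and 45.0 FPKM, and flp-21 stood at 13.5, 10.5 and 14.8 against 126, 122, 114 and 249 (log2 fold change -3.40, SE 0.28), with XX male replicate 4 above its companions. Neuropeptide-like genes fell in 51 of 69 tested (75 in the table) and rose in 1 (53 and 3 without XX male replicate 4), with a median of -1.34. T01B6.4 (nlp-45) stood at 4.27, 3.65 and 2.98 FPKM against 76.8, 88.2, 76.6 and 108 (-4.25), and T24F1.5 (nlp-51) had -3.44. The member that rose, nlp-31, an antimicrobial-type peptide gene of the epidermis, had 0.69 with overlapping libraries, and its call was lost without XO hermaphrodite replicate 1 or 3, without XX male replicate 1, 2 or 3, after upper quartile scaling (0.28) and after quantile normalization (0.37).

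Insulin-like peptide genes fell in 21 of 30 tested (40 in the table), with 2 higher and a median of -1.25. The gene ins-31 stood at 0, 0 and 0.118 FPKM against 528, 488, 527 and 1071 (log2 fold change -9.22 with SE 0.27, limma adjusted p = 9.0e-08), and ins-37 fell by 3.21. ins-34 rose, at 14.9, 14.9 and 10.0 against 0.151, 0.518, 0.976 and 0.482 (3.23). Ligand-gated ion channel genes had 30 of 38 tested lower and 1 higher (94 in the table), with a median of -0.86, and 18 and 4 after quantile normalization; avr-15, a glutamate-gated chloride channel gene, fell by 2.17, lgc-22 fell by 2.08 and lgc-42 rose by 0.88. Of the chemoreceptor genes only 14 of 1338 reached the filter, 7 lower and 1 higher (8 and 2 without XX male replicate 4). The one that rose, sri-40, stood at 7.29, 10.9 and 14.9 FPKM against 0.514, 0.433, 0.447 and 0.852 (2.90), and srd-28 and srd-27 fell by 1.99 and 1.86.

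Transmitter synthesis and release genes were lower in 17 of 20 cases. The vesicular monoamine transporter gene cat-1 stood at 0.727, 0.664 and 1.21 FPKM against 24.9, 24.1, 21.2 and 22.6 (log2 fold change -3.71, SE 0.14), and the release factor gene unc-18 at 14.2, 8.53 and 13.1 against 54.6, 32.2, 77.7 and 53.0 (-2.06), both on the X. The synaptic vesicle gene snb-1 was not called (0.28), and 2 were higher, both of them enzymes of octopamine synthesis known to be made also in the gonadal sheath. tbh-1 stood at 35.03, 27.9 and 25.8 FPKM against 2.47, 2.51, 2.94 and 3.50 (2.98, SE 0.16), and tdc-1, named after its value was seen, had 1.96.

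The medians of nuclear hormone receptors, fatty acid genes and heat shock genes changed sign between scalings. Of 146 tested receptors (280 in the table) 29 were higher and 41 lower, with 49 and 24 after scaling to a common sum, 76 and 24 after quantile normalization and 18 and 78 after upper quartile scaling. nhr-66 rose by 1.78, and nhr-43 and nhr-88 fell by 1.55 and 1.44. Of 20 fatty acid genes 5 were higher and 8 lower (8 and 5 after scaling to a common sum, 7 and 4 after quantile normalization, 1 and 10 after upper quartile scaling, and 3 and 8 without XO hermaphrodite replicate 3), with the elongase gene elo-3 higher by 0.78, opposite to elo-7 and elo-8. The share of fatty acid genes called lower, 8 of 20, is near the 39.6% of all tested genes. Of 17 tested heat shock genes (of 18) 2 were higher and 5 lower with a median of -0.18 (0.23 after scaling to a common sum, 0.45 after quantile normalization), but 8 were higher and 5 lower without XO hermaphrodite replicate 3. The Hsp90 gene daf-21 stood at 1109, 1382 and 1094 FPKM against 657, 607, 598 and 606 (0.94), whereas hsp-25, on the X, had 188, 183 and 211 against 831, 880, 866 and 865 (-2.14, SE 0.09), and hsp-12.2 fell by 2.0. The heat-inducible hsp-16.2, named after its values were seen, varied more within XO hermaphrodites than between groups, at 38.3, 128 and 4.75 FPKM against 12.5, 10.1, 7.91 and 4.39, and was not called (limma adjusted p = 0.117).

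The 5 most abundant transcripts of each group were only in part the same genes. The ribosomal protein gene rpl-29 was among the top 5 by mean FPKM in each group, at 12850, 14670 and 16730 against 15850, 15210, 32840 and 16610, and was not called (limma adjusted p = 0.251). Y82E9BR.3 was in both as well and was lower in XO hermaphrodites (log2 fold change -0.91, and -0.34, not called, after quantile normalization). The XO hermaphrodite top 5 also held F13H10.8 (0.41) and far-2, a lipid-binding protein gene (0.26), neither of them called, and the elongation factor gene eef-1A.1 (0.34, called, but -0.08 and not called after upper quartile scaling). The call of eef-1A.1 was lost without XO hermaphrodite replicate 2 or XX male replicate 1 or 2. The XX male top 5 held 3 collagens, col-119, col-122 and col-124.

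The X chromosome had a smaller share of tested genes higher, and a larger share lower, in XO hermaphrodites than any autosome. Of 1850 tested X genes 284 (15.4%) were higher in XO hermaphrodites, which have one X, and 1073 (58.0%) lower, with a median log2 fold change of -0.65. On the autosomes the share lower ran from 30.7% on chromosome III to 41.7% on chromosome IV, and the share higher from 33.0% on V to 51.9% on III. Under the other scalings the share of X genes lower ranged from 41.8% after scaling to a common sum to 71.0% after upper quartile scaling. The shares of X genes higher there were 21.4% and 11.9%. Within each library, the median X gene minus the median autosomal gene was -1.38, -1.37 and -1.41 on the log2 scale in the XO hermaphrodites and -0.82, -0.87, -0.81 and -0.88 in the XX males. The groups did not overlap, with a difference of -0.54 and an exact two-sided permutation p of 0.0571, the smallest that 3 against 4 libraries allow, so the design cannot reach 0.05. The difference became -0.01 after quantile normalization. Without the filter on the mean, over all genes above 0 in any of the 7 libraries, it was 0.34. Most genes of germ cell fate, meiotic chromosomes and the cell cycle were higher in XO hermaphrodites, while more X genes were lower than higher. The germline is known to keep the X largely silent in many of its cells, and its part in the X value was not tested.

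**Figure D4:**
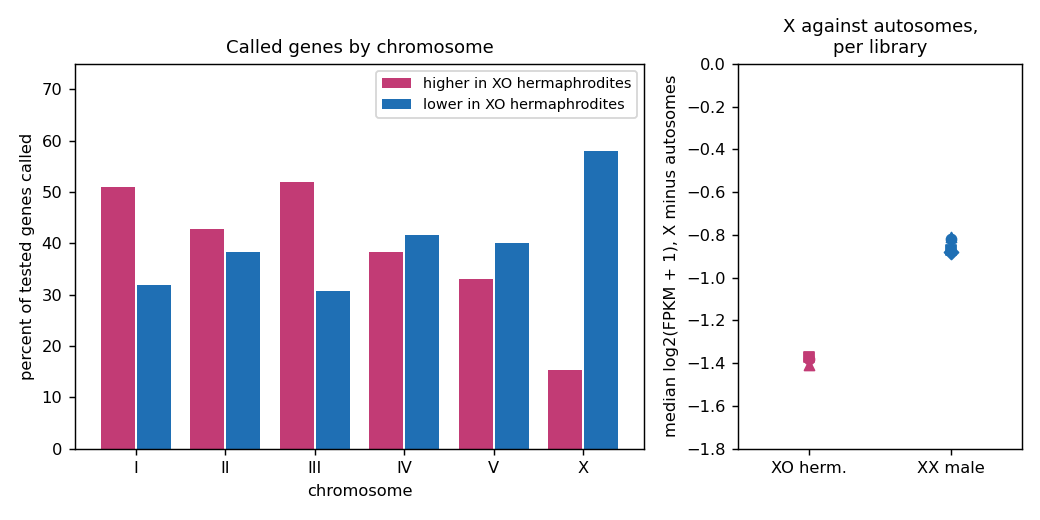
Bars (left) give the percent of tested genes on each chromosome called higher (pink) or lower (blue) in XO hermaphrodites; points (right) give, for each library, the median log2(FPKM + 1) of tested X genes minus that of tested autosomal genes. The X has the tallest blue bar, 58.0%, and the 3 XO hermaphrodite libraries lie between -1.41 and -1.37, below the XX males. This difference reversed to 0.34 without the filter on the mean.

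The X genes that rose most, after Y62H9A.6, are known by sequence names. Y62H9A.5, next in name to Y62H9A.6, stood at 386, 315 and 263 FPKM against 1.46, 0.667, 0.943 and 7.6 (log2 fold change 6.79), ZC373.2 at 916, 601 and 552 against 3.44, 4.27, 2.78 and 16.97 (6.74), and F53H4.2 at 158, 157 and 140 against 0.237, 0.324, 0.127 and 1.20 (6.75). In all 3 the XX male replicate 4 was the highest of its group. X genes that fell most, after F56C3.8, were C14F11.7, at 0, 0 and 0.369 FPKM against 421, 375, 449 and 785 (-8.78), and C06E2.9 and T10B10.9, both listed at 0 in all XO hermaphrodite libraries with means of 266 ± 117 and 190 ± 30.4 FPKM in the XX males.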

How the data were processed

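The authors deposited 1 table of FPKM values, genes by libraries, per the file headers, and the submitters' processing notes name Cufflinks 2.2.0. The sources used here give no aligner, build or annotation. Chromosomes are therefore those of the table, without coordinates or sequences. RNA was selected on oligo(dT) beads for stranded libraries, per the labels' protocols. Whether counting used strand is not stated, and 49 of the 170 named genes overlap a protein-coding gene on the opposite strand in WBcel235. Of 20417 rows, 6 repeats, 22 empty genes and 13 genes filled for adult XX males alone (12 mitochondrial) were removed. Replicates follow the sample titles, and all columns were matched to samples (0 unmatched).

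Absolute depth is unknown. Steps between values under 0.3 FPKM gave depths, relative to XX male replicate 1, of 1.03, 1.04 and 0.697 in XO hermaphrodites and 1.45, 0.616 and 1.25 in XX male replicates 2 to 4.

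limma 3.58.1 under R 4.3.3 fitted all genes (lmFit, then eBayes with trend, pseudocount 1, 7 libraries, Benjamini-Hochberg threshold 0.05). Python 3.11.15, pandas 2.3.3, numpy 2.4.6 and matplotlib 3.10.9 did the rest. On simulated data over 14141 genes, 57% of log2 changes of 1 and 93% of changes of 2 were recovered, with 3 unchanged genes called; the simulation changed far fewer genes than the real comparison called.

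Named genes were the 8 largest rises and falls without overlap whose higher group averaged 10 FPKM or more, at most 2 called members of each of 41 lists in its main direction and 1 in the other, the 5 most abundant genes of each group, the 4 largest X rises and falls, and all members of the sex determination, male neuron, seminal fluid, yolk and translocase lists with the strain genes. Members, lists and rules were chosen with earlier results of these data known. Symbols are the table's; 19198 IDs matched current names.

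Alternatives covered the pseudocount, filter, 4 scalings, no trend, array weights, a fit of all groups, thresholds, replicate blocks and leaving out each library. Deviations of same-numbered libraries by title from their group means correlated at 0.05, 0.294 and 0.195. No label says that the numbers pair samples, so the main fit has no block and the block is an alternative.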

Additional observations from a re-analysis of the deposited data

Results flagged for a closer look

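In groups of 4 libraries values were taken on the log2(FPKM + 1) scale. A value was singled out where its gap to the nearest other value divided by the group's range exceeded Dixon's critical value. Of 169 named genes examined in the XX males 24 met this, and chance gives about 1 in 20 for a single group. The genes were chosen from these data and share libraries, so the 24 cannot be weighed against that rate. With all other XX males at 0, sea-1 and cdc-25.3 meet the rule at any value above 0.

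Replicate 4 of the XX males was apart most often. It was high in the ule genes C08F11.11 (27.7 FPKM), D1054.11 (15.9), W03F11.1 (13.3) and Y62H9A.6 (13.8), which XO hermaphrodites express strongly. High values in the same library were found among male-enriched genes too, in cwp-2 (114 FPKM), clec-197 (752), clec-99 (703), spp-4 (564), flp-21 (249), T24F1.5 (123), ins-31 (1071), srd-28 (8.65) and srd-27 (9.69). It was further high in sea-1 (0.0306 FPKM, with the other XX males at 0), glp-1 (7.70), lys-10 (4.94) and laf-1 (57.2), and low in col-149 (70.7) and tra-1 (43.9).

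Of the other XX males, replicate 1 was high in cdc-25.3 (0.091 FPKM), daf-21 (657) and sex-1 (2.83), replicate 2 was low in sdc-2 (0.688) and replicate 3 was high in rpl-29 (32840).

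Outside the comparison, the TY2205 adult library marked as reverted gave 74.7 FPKM for her-1 and 17.7 for sdc-3. These lay above all 7 compared libraries, which reached 42.7 for her-1 and 1.79 for sdc-3.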

How the results depend on the processing

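The difference in X minus autosome level (-0.54) was -0.62 with a pseudocount of 0.1, -1.09 with a minimum mean of 5 FPKM, -0.29 from means over genes, -0.01 after quantile normalization (exact permutation p = 0.9143) and 0.34, reversed, with no filter; the cause was not tested. Leaving out 1 library gave -0.56 to -0.53. Testing against a log2 fold change of 1 left 2710 higher and 2639 lower genes, since a larger change is asked for. Leaving out 1 library gave 5335 to 5742 higher and 5198 to 5697 lower genes. A replicate block by titles gave 5635 and 5605, and a replicate block by the numbers in the source names gave 5097 and 5296. Deviations from the group means correlated at 0.05, -0.205 and -0.036 for the pairs by source names. By these deviations each XO hermaphrodite library correlated best with its own title number, a hint from the data and not the design. With the block by titles 123 collagens were lower, against 63. XX male replicate 4 by titles, and XX male replicate 2 by source names, have no XO hermaphrodite library of their number. Each block therefore sets that library aside and gives the same log2 fold changes as leaving it out, for col-124 -1.78 and -1.44. The part of pairing in the count of 123 was not tested.

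For named genes, 3338 values were counted as unchanged, 99 in 33 genes fell short of the threshold and 16 in 5 genes newly passed it. Reversal was counted only for genes called in the main fit, and the 2 that reversed were asp-4 (-0.12) and eef-1A.1 (-0.08) after upper quartile scaling. Sign changes of genes not called in the main fit were counted as unchanged. Such changes were seen for F13H10.8 (-0.01) and far-2 (-0.17) after upper quartile scaling. They were also seen for rpl-29 (0.04) and fox-1 (0.15) after scaling to a common sum. Depth, known only relative to other libraries, was lowest in XX male replicate 3 and XO hermaphrodite replicate 3, which limits low genes most.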

Other observations

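The TY2205 adult library marked as reverted belongs to no compared group. It gave 0.672 FPKM for xol-1, which was at 0 in all 7 compared libraries. Its puf-5 level was 434 FPKM, beside 413 to 485 in the XO hermaphrodites, and the FPKM of its major sperm protein genes summed to 342, beside 429 to 2558. The yolk gene vit-6, listed at 0 in XO hermaphrodite replicates 1 and 2, stood at 7837 FPKM there, and vit-2 stood at 4023.

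Listings at 0 beside high values in the same group were seen for a further pair of genes. Y17D7B.10 was at 0, 2113 and 1041 FPKM in XO hermaphrodites and at 0, 1694, 867 and 2140 in XX males. K07C5.13 was at 67.1, 199 and 98.0 FPKM in XO hermaphrodites and at 0, 39.8, 102 and 0 in XX males.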
